A study of Mus musculus with 2 samples.

Results

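The SRC family kinase genes Lyn, Fyn, Lck, Yes1, Fgr, Src and Blk were followed together with Syk and Btk, whose proteins act beside them at the cell membrane. They were picked by gene symbol, and all 9 were found among the 43346 annotated genes of the deposited tables. Total RNA was sequenced from mouse HSC, which the labels give as hematopoietic stem cells from males of strain C57BL/6J at 5 to 6 weeks of age. The labels name no treatment, and the 2 libraries form 1 group, each made from 100 ng of RNA depleted of ribosomal RNA. The libraries come from separate biosamples with the same strain and donor entry, and whether they stand for different animals, pools of animals or a given surface gate is not stated in the sources used here. The spread between them may therefore be partly technical. With 2 replicates of 1 group the smallest exact p is 0.5, so levels are given per library with their spread and no test.

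Replicate 1 held 27901074 expected counts and replicate 2 held 48490188. Protein-coding genes took 16.3% of TPM in replicate 1 and 20.3% in replicate 2, and 81.5% and 86.6% of counts. TPM is a count divided by transcript length and scaled to a fixed total over all RNA of the library, so levels in TPM are per length. Of 15 stem cell genes, 14 reached 1 TPM in both libraries, Cd34 (145.2 and 166.4 TPM) and Angpt1 (86.5 and 113.9 TPM) being highest, while Slamf1 stood at 0.42 and 0.43 TPM. RNA of neutrophil genes was also present and was higher in replicate 1, as described below.

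SRC family kinases are anchored to the inner face of the cell membrane and pass signals on from receptors that have no kinase of their own. A tyrosine in the tail, phosphorylated by CSK, holds them closed, and receptor phosphatases such as CD45, encoded by Ptprc, open them. Active SRC family kinases phosphorylate paired tyrosines in receptor chains known as ITAMs. SYK docks there through its tandem SH2 domains, and SYK and LYN together switch on BTK, a TEC family kinase that activates phospholipase C gamma. In blood progenitors these kinases also work downstream of KIT, cytokine receptors and integrins.

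By mean TPM, Syk was the highest of the 9 genes, followed by Btk and Lyn, then Fyn and Lck, then Yes1 and Fgr, with Src and Blk lowest. At 1 TPM in both libraries, 7 of the 9 were detected and Src and Blk were not, against 44.0% of all 21474 protein-coding genes. At 0.5 TPM 8 of 9 were (48.5% of protein-coding genes), and at 2 TPM 5 of 9 (37.0%). With TPM rescaled over protein-coding genes it was 8 of 9 (52.5%), and with TPM of protein-coding transcripts alone 7 of 9 (41.6%). Syk and Btk together held 53.0 ± 4.78% of the summed TPM of the 9 genes (SD, n = 2), and the 7 SRC family genes held the remainder. As a percentile of protein-coding genes by TPM (mean of the 2 libraries), Syk lay at 92.4, Btk at 89.8, Lyn at 87.4, Fyn at 80.7, Lck at 76.1, Yes1 at 59.3 and Fgr at 56.0. These percentiles include the 7576 genes with 0 counts in both libraries. Among genes with any count, Syk lay at 88.3, Btk at 84.2, Lyn at 80.6 and Fyn at 70.2. By the same measure Lck lay at 63.1, Yes1 at 37.2 and Fgr at 31.9.

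**Figure D1:**
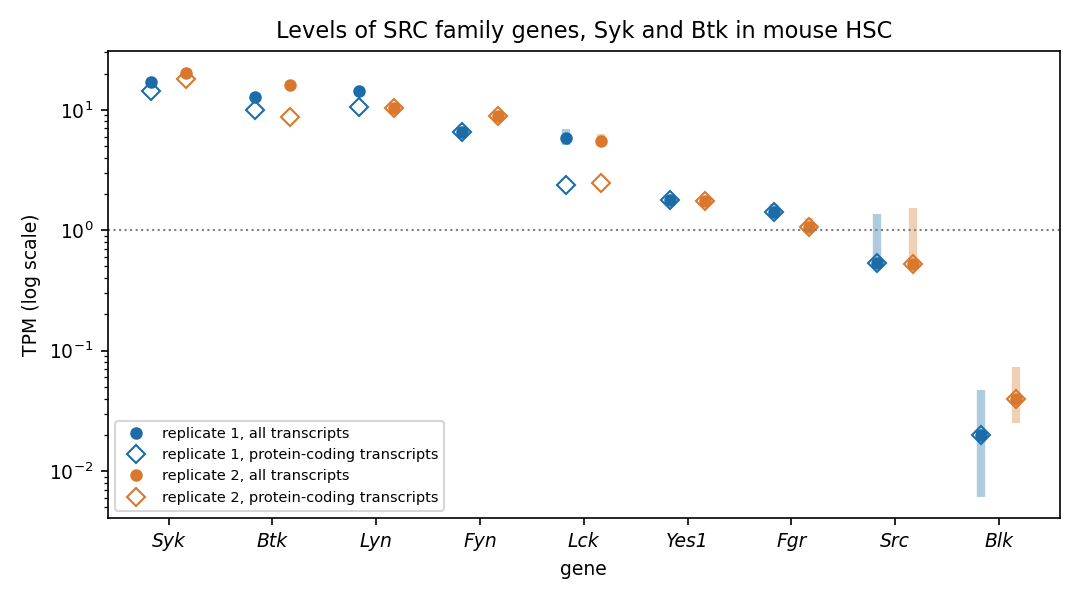
TPM on a log axis for each of the 9 genes in replicate 1 (blue) and replicate 2 (orange), with filled points for all transcripts, open diamonds for protein-coding transcripts alone and pale bars for the deposited 95% bounds. The filled points of Syk, Btk and Lyn lie above 10 TPM in both libraries, while the open diamonds of Btk lie below 10 TPM in both. The open diamonds of Lck lie well below its filled points, and Src and Blk lie below the dotted line at 1 TPM.

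Syk (ENSMUSG00000021457.10, chr13:52583173-52648792 on GRCm38, the build of all positions given, plus strand) had 17.1 TPM in replicate 1 and 20.4 TPM in replicate 2, from 6572 and 11999 counts. Its mean was 18.8 ± 2.31 TPM (SD, n = 2), and the deposited 95% bounds were 16.4 to 17.3 TPM and 19.8 to 20.6 TPM. Syk-201 was its leading transcript in both libraries, with 70.4% and 71.2% of the gene's TPM, ahead of Syk-203 with 10.9% and 15.1%. A transcript with a retained intron, Syk-204, held 10.2% and 7.59%. Syk is spliced into a long protein form and a form that lacks part of the linker before the kinase domain. The exon that separates them is shown because nearly all coding Syk RNA carried it. It is printed from GENCODE M21 transcripts with 20 bases of the neighbouring exons on each side in lower case, and the exon (GRCm38 chr13:52624708-52624776, plus strand) in capitals:
Syk exon: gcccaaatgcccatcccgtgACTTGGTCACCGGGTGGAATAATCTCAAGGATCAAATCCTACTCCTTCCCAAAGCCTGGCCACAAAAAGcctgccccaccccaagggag
These 69 bases encode 23 codons. Transcripts with the exon made up 96.5% of protein-coding Syk TPM in replicate 1 and 96.9% in replicate 2, and Syk-202, which lacks it, made up 3.47% and 3.09%. The exon's share thus differed little between the libraries. Syk-202 also ends earlier than Syk-201, with 2519 bases and 583 codons against 5122 bases and 629 codons. The exon is therefore not the only difference between these transcripts. Of the coding TPM, 83.6% and 79.9% was assigned to the start site of Syk-201, and 16.4% and 20.1% to the upstream start region of Syk-202 and Syk-203.

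Btk (ENSMUSG00000031264.9, chrX:134542336-134583570, minus strand) had 12.9 TPM in replicate 1 and 16.2 TPM in replicate 2, from 2213 and 3485 counts. Its mean was 14.5 ± 2.33 TPM (SD, n = 2), with bounds of 11.9 to 13.8 TPM and 15.3 to 17.2 TPM. The full-length coding transcript Btk-201, of 659 codons, led in both libraries with 77.3% and 54.0% of the gene's TPM. The rest was on RNA annotated as not protein-coding, which was Btk-203 (14.1% and 0%) and Btk-204 with a retained intron (8.62% and 21.7%), beside Btk-205 (0% and 24.3%). Such RNA held 22.8% of Btk TPM in replicate 1 and 46.1% in replicate 2, from 8.9% and 25.4% of the gene's counts. Btk-205 is 481 bases long, so its 121.9 counts in replicate 2 gave 3.93 TPM, while the 2599 counts of Btk-201 gave 8.72 TPM. Coding Btk RNA alone stood at 9.94 TPM in replicate 1 and 8.72 TPM in replicate 2. The direction of the difference between the replicates was thus the opposite of that for all Btk transcripts.

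Lyn (ENSMUSG00000042228.10, chr4:3678115-3813122, plus strand), the SRC family kinase with both activating and restraining roles in myeloid and B cells, had 14.3 TPM in replicate 1 and 10.4 TPM in replicate 2. These values came from 3120 and 4351 counts, and the mean was 12.4 ± 2.72 TPM (SD, n = 2), with bounds of 13.3 to 14.9 TPM and 10.1 to 10.7 TPM. The replicates did not overlap in TPM. Coding Lyn RNA alone stood at 10.6 TPM in replicate 1 and 10.4 TPM in replicate 2. Lyn-204, a short processed transcript of 687 bases, made up most of the gap in TPM with 3.71 and 0 TPM, from 158.6 counts in replicate 1 and none in replicate 2. It held 5.1% of Lyn counts in replicate 1 and 26.0% of Lyn TPM.

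Lyn makes a longer protein, LYNA, and a shorter one, LYNB, that differ by a stretch near the amino terminus. The libraries disagreed on this segment. It has 63 bases and adds 21 codons, so Lyn-201 encodes 512 codons and Lyn-202 encodes 491. Lyn-201, with the segment, had 6.59 TPM in replicate 1 and 10.4 TPM in replicate 2. Lyn-202, without it, had 3.98 TPM in replicate 1 and was listed at 0 in replicate 2. By bounds, Lyn-202 lay between 3.15 and 4.64 TPM in replicate 1 and did not exceed 0.204 TPM in replicate 2. Transcripts with the segment thus took 62.3% of coding Lyn TPM in replicate 1 and 100.0% in replicate 2. The implied mean fragment length also differed, being 193 bases in replicate 1 and 245 bases in replicate 2, as did the size range entered for each library. The part of fragment size in the difference between transcripts was not tested.

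Fyn (ENSMUSG00000019843.10, chr10:39368855-39565381, plus strand), a broadly expressed SRC family kinase that also acts in T cells, had 6.55 TPM in replicate 1 and 8.92 TPM in replicate 2. The counts were 1416 and 2913, the mean was 7.74 ± 1.68 TPM (SD, n = 2), and the bounds of 6.21 to 7.26 TPM and 8.58 to 9.49 TPM did not overlap. No Fyn TPM was on RNA annotated as not protein-coding. Fyn uses either of a pair of mutually exclusive exons at the start of the kinase domain, one typical of T cells and other blood cells (FYNT) and one typical of brain (FYNB). Both are shown because they tell these forms of Fyn RNA apart. Capitals mark the exons at GRCm38 chr10:39529919-39530074 (in Fyn-201) and chr10:39529437-39529601 (in Fyn-202), and the lower-case bases are the shared neighbouring exons, from GENCODE M21:
FYNT exon: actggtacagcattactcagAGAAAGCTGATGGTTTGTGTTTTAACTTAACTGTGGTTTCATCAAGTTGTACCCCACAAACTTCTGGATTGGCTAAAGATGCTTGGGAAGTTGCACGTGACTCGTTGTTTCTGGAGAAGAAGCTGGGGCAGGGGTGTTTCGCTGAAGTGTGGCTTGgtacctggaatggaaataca
FYNB exon: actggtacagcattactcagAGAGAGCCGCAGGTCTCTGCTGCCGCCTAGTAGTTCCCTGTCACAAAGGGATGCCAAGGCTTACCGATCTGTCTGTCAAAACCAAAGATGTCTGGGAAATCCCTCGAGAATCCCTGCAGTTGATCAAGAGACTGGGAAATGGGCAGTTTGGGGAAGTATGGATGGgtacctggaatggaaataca
The exons are 156 and 165 bases long, and 89 bases were identical in a global alignment, 53.9% of its length. Both lie between the same neighbouring bases. The exon of Fyn-201, which gives the 534-codon FYNT form, was in 69.5% of coding Fyn TPM in replicate 1 and 59.0% in replicate 2. The exon of Fyn-202, which gives the 537-codon FYNB form, was in 9.77% and 4.93%. The T cell and blood form was therefore the more abundant of the pair in both libraries, at 4.55 and 5.27 TPM, against 0.64 and 0.44 TPM for the brain form. Fyn-206, a 482-codon transcript with neither exon, took the remaining 20.8% in replicate 1 and 36.1% in replicate 2. Of the 7 genes with a mean of at least 1 TPM, 5 had the same leading transcript in both libraries, against 74.0% of 7414 such protein-coding genes, and Fyn and Lck did not. By posterior mean shares it was 6 of 7, with Fyn among them, against 5479 of 7414 protein-coding genes. Among coding transcripts it was 6 of 7, with Lck among them, against 6133 of 7413 genes. The leading Fyn transcript was not the same in the libraries, being Fyn-205 at 35.97% in replicate 1 and Fyn-201 at 44.9% in replicate 2. Fyn-205 has the same exon as Fyn-201, and its bounds were wide, 0.0388 to 2.69 TPM in replicate 1 and 0.0387 to 1.57 TPM in replicate 2.

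**Figure D2:**
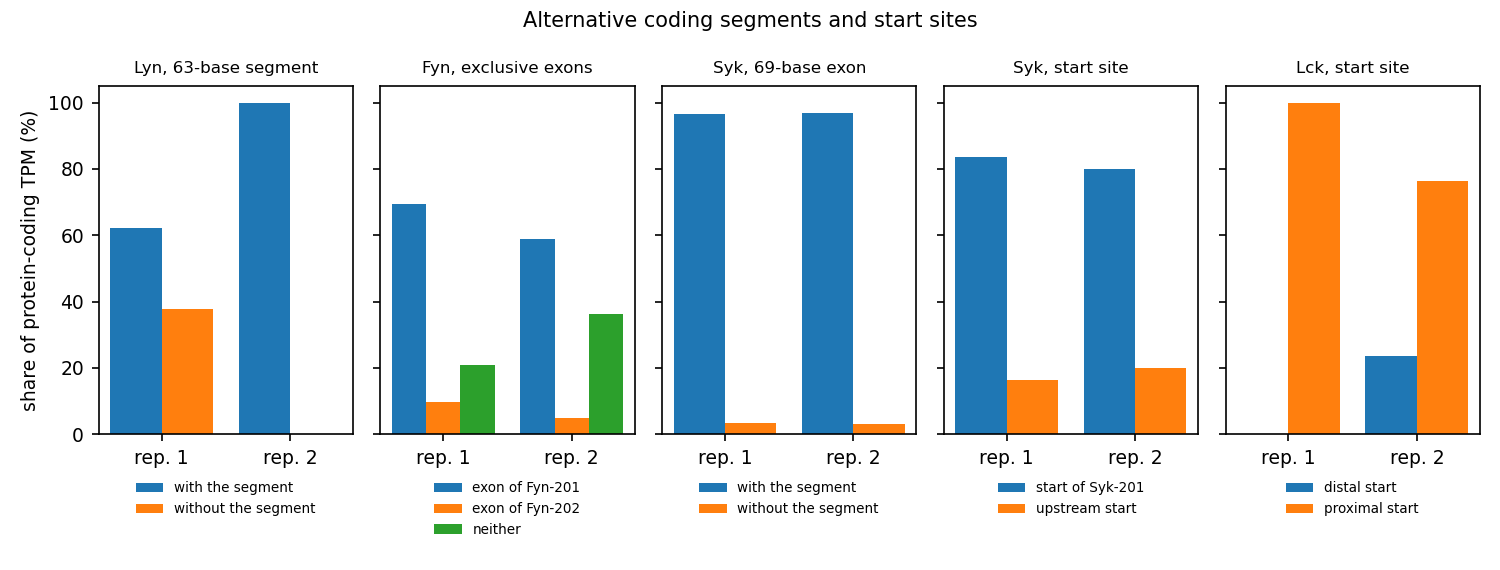
Share of protein-coding TPM (percent, from 0) for alternative coding segments and start sites of Lyn, Fyn, Syk and Lck in replicate 1 and replicate 2. The Syk exon is near complete in both libraries, the exon of Fyn-201 exceeds that of Fyn-202 in both, and the Lyn and Lck alternatives differ between the libraries. For the distal Lck transcript, the bounds in TPM overlap between the libraries.

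Lck (ENSMUSG00000000409.10, chr4:129548344-129573641, minus strand), the SRC family kinase that starts T cell receptor signalling, had 5.87 TPM in replicate 1 and 5.55 TPM in replicate 2. It had 519 and 804 counts, a mean of 5.71 ± 0.226 TPM (SD, n = 2) and overlapping bounds of 5.14 to 6.91 TPM and 5.12 to 6.34 TPM. More of this was on RNA that is not annotated as protein-coding than on coding RNA, with 59.6% of Lck TPM in replicate 1 and 55.7% in replicate 2. By counts the share was 25.0% and 26.4%, the leading transcripts with retained introns being 568 and 779 bases long. The median gene of 7414 protein-coding genes with several transcripts and a mean of at least 1 TPM had 11.7% and 7.97% of its TPM on such RNA. Lck-203 held 45.1% and 0% of Lck TPM and Lck-205 held 14.6% and 54.6%, both annotated with a retained intron. The coding transcript Lck-208 was similar in both libraries at 30.9% and 31.5%. Coding Lck RNA stood at 2.37 TPM in replicate 1 and 2.46 TPM in replicate 2.

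Lck is read from a proximal promoter, used mainly in thymocytes, and a distal promoter, used mainly in mature T cells. The proximal start took 100.0% of coding Lck TPM in replicate 1 and 76.4% in replicate 2. Lck-202, from the distal start, was listed at 0 TPM in replicate 1, with bounds up to 0.218 TPM. It had 0.58 TPM in replicate 2, from 141.6 counts, with bounds from 0.192 to 1.17 TPM. The bounds of the libraries thus overlapped. By posterior means, the distal share was 2.82% in replicate 1 and 27.8% in replicate 2. The 250 bases before each start are shown because coding Lck RNA was assigned to both starts in replicate 2. They are from RefSeq on GRCm38.p6, minus strand, at chr4:129558373-129558622 (proximal) and chr4:129573642-129573891 (distal). Capitals mark matches to the motifs searched:
Lck proximal promoter: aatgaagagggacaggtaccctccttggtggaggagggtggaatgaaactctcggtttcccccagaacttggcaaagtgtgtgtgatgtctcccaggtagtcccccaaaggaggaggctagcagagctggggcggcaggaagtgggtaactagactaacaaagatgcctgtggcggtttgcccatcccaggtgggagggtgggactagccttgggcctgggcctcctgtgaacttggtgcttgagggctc
Lck distal promoter: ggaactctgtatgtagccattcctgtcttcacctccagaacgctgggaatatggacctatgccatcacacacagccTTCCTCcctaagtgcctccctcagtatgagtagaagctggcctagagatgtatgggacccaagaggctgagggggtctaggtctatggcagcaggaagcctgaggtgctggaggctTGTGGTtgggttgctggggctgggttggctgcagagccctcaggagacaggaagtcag
Both strands were searched for a core of the ETS factor PU.1, GAGGAA. A core of other ETS factors, CCGGAA, was searched in the same way. The RUNX core was searched as TGTGGT. The core of the GATA family was searched as AGATAA, and no match overlapped another in the printed windows. The distal window held a GAGGAA match beginning 174 bases before the start, on the opposite strand, and a TGTGGT match 58 bases before it, while the proximal window held none. Of the 9 windows found for 7 of the genes (none for Lyn or Blk), 3 held the PU.1 core, 2 the other ETS core, 2 the RUNX core and 0 the GATA family core. Among all 32851 RefSeq windows of this length, 23.3% held the PU.1 core, 12.0% the other ETS core, 14.0% the RUNX core and 9.99% the GATA family core.

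**Figure D3:**
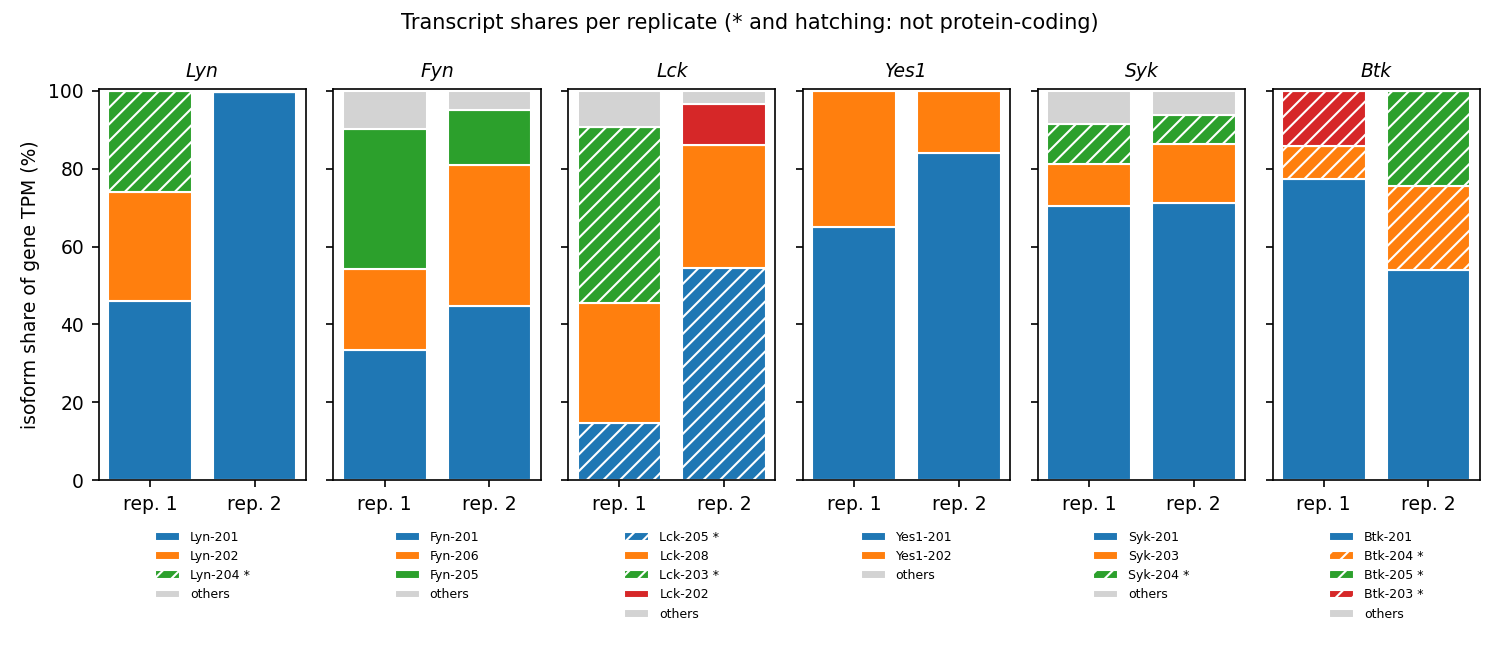
Percent of each gene's TPM held by each transcript in replicate 1 and replicate 2 for Lyn, Fyn, Lck, Yes1, Syk and Btk, with hatching for RNA not annotated as protein-coding. Syk bars are alike in both libraries, with Syk-201 at 70.4% and 71.2%, and the Lyn, Lck and Btk bars differ.

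Yes1 (ENSMUSG00000014932.11, chr5:32611171-32687057, plus strand), a broadly expressed relative of Src, had 1.78 TPM in replicate 1 and 1.75 TPM in replicate 2, from 561 and 913 counts (mean 1.77 ± 0.0212 TPM, SD, n = 2). The longer of its transcripts, of 4608 bases, led in both libraries with 65.1% and 84.0% of its TPM, and one of 2432 bases held the rest. Both encode the same 541 codons. Fgr (ENSMUSG00000028874.10, chr4:132974095-133001910, plus strand), best known from neutrophils and monocytes, had 1.42 TPM in replicate 1 and 1.06 TPM in replicate 2, from 388 and 429 counts. Its mean was 1.24 ± 0.255 TPM (SD, n = 2), and the bounds of 1.30 to 1.66 TPM and 0.982 to 1.26 TPM did not overlap. All Fgr TPM was assigned to Fgr-201.

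Src (ENSMUSG00000027646.11, chr2:157418444-157471862, plus strand), the founding gene of the family, had 0.53 TPM in replicate 1 and 0.52 TPM in replicate 2, from 170 and 227 counts. These values lie at the lower edge of the deposited bounds of 0.532 to 1.36 TPM and 0.516 to 1.53 TPM, and the deposited posterior means were higher, at 0.87 and 0.90 TPM. All Src TPM was assigned to Src-201 in replicate 1 and to Src-204 in replicate 2, which encode the same 535 codons. By posterior mean shares, Src-201 held 25.7% in replicate 1 and Src-204 held 53.6% in replicate 2. Src-207, of 222 bases and not annotated as protein-coding, held 26.5% and 33.7%, so the assignment was uncertain. Blk (ENSMUSG00000014453.3, chr14:63372836-63417037, minus strand), the B lineage member, had 0.02 TPM in replicate 1 and 0.04 TPM in replicate 2, from 4 and 13 counts. In counts scaled to a common total (CPM) it stood at 0.143 CPM (exact Poisson 95% interval 0.0391 to 0.367) and 0.268 (0.143 to 0.459), which cover counting error only. Blk was thus near the limit of what this depth can detect.

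Of the 36 pairs among the 9 genes, 32 kept the same order in both libraries with bounds that did not overlap in either, against 75.2% of all pairs of protein-coding genes. That background also counts pairs with the 7576 protein-coding genes at 0 counts in both libraries. The share among expressed genes alone was not computed. Neighbours in level that were not ordered were Btk and Lyn (ratio 0.901 in replicate 1 and 1.55 in replicate 2), Fyn and Lck (1.12 and 1.61), Yes1 and Fgr (1.25 and 1.65) and Fgr and Src (2.68 and 2.04). Syk exceeded Btk by 1.33-fold and 1.26-fold, and Lyn by 1.20-fold and 1.95-fold. The narrowest ordered pair in a library was Lyn over Fyn, at 2.18-fold in replicate 1 and 1.17-fold in replicate 2. In coding transcripts alone, 31 of the 32 ordered pairs kept their direction in both libraries. The exception, Btk over Fyn, had ratios of 1.52 in replicate 1 and 0.977 in replicate 2. In CPM, without division by length, Lck over Yes1 lost its order, with ratios of 0.925 and 0.881 against 3.30 and 3.17 in TPM. Btk over Lyn was below 1 in both libraries, at 0.709 and 0.801 in CPM and 0.940 and 0.838 in coding transcripts.

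Apart between the replicates means over 2-fold different with bounds that did not overlap, at a mean of at least 1 TPM, which Src and Blk did not reach. None of the other 7 genes was apart, against 9.27% of 9900 protein-coding genes. At 1.5-fold the count by TPM was also 0 of 7, against 30.2%. The 1.5-fold setting was not run on scaled counts or rescaled TPM. At 2-fold it stayed 0 of 7 with counts scaled by TMM (5.45% of genes), by DESeq2 size factors (5.44%) and with TPM rescaled over protein-coding genes (7.84%). The median log2 ratio of replicate 1 over replicate 2 was -0.29 over those 9900 genes, on the scale of TPM plus 0.1. Relative to that shift Lyn (0.45) and Fgr (0.39) lay highest, followed by Lck (0.08), Src (0.02) and Yes1 (0.02). Syk (-0.25) and Btk (-0.33) lay close to it, and Fyn (-0.44) lay lowest on this scale. Blk was at -0.22, but its 0.02 and 0.04 TPM are below the pseudocount. By TMM, from 4 and 13 counts, Blk was at -0.9, the lowest of the 9 genes. With counts scaled by TMM, which do not depend on which transcript a read is given to, Fgr was at 0.66, Lyn at 0.32 and Fyn at -0.24, while Btk was at 0.15. Lyn and Fgr had a ratio above 0 and Fyn one below 0 by TPM, rescaled TPM, TMM and DESeq2 size factors alike.

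**Figure D4:**
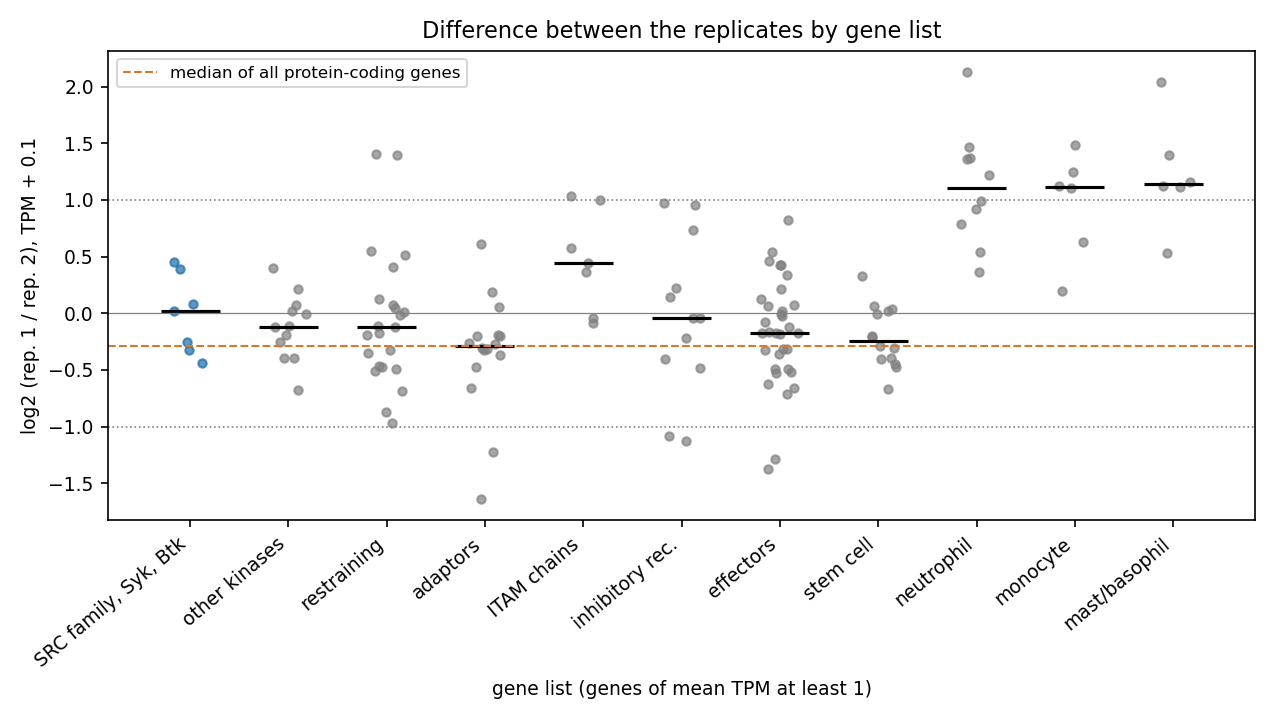
Log2 ratio of TPM plus 0.1 in replicate 1 over replicate 2 for genes of mean TPM at least 1, by gene list, with black bars for list medians, a dashed line at the median of all protein-coding genes and dotted lines at 2-fold. The 7 SRC family, Syk and Btk genes with a mean of at least 1 TPM span -0.44 to 0.45, and the neutrophil, monocyte and mast cell lists have medians of 1.11, 1.11 and 1.14.

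Fgr was higher in replicate 1, and markers of myeloid cells were higher there as well. All 10 neutrophil genes reached 1 TPM in both libraries, and their summed level was 3048 TPM in replicate 1 and 1142 TPM in replicate 2, led by S100a8 (1504 and 644.8 TPM) and S100a9 (952.2 and 217.6 TPM). Of 10 monocyte genes 5 did, with sums of 373.4 and 173.3 TPM, led by Lyz2 (333.7 and 153.5 TPM) and Ly6c2 (24.9 and 11.5 TPM). Their part in the Fgr level was not tested. In such bulk RNA, fewer cells of a type and less RNA per cell cannot be told apart.

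Markers of lymphocytes, in which Lck, Fyn, Blk, Syk and Btk are best known, were low. Of 10 B cell genes only Cd79b reached 1 TPM in both libraries (4.89 and 3.25 TPM), and Pax5, Cd22 and Igll1 had 0 counts in both. The B cell sums were 5.68 and 3.48 TPM, less than Btk alone. Of 10 T cell genes, 3 reached 1 TPM in both libraries, namely Cd28 (1.06 and 3.68 TPM), Cd3g (1.49 and 1.59 TPM) and Cd4 (1.61 and 1.19 TPM). Trac and Cd8a had 0 counts in both. The T cell sums were 5.09 and 7.33 TPM. All Lck transcripts stood at 5.87 and 5.55 TPM, and coding Lck RNA, at 2.37 and 2.46 TPM, lay below those sums. A count of 0 allows up to 3 counts, which is 0.108 CPM in replicate 1 and 0.0619 CPM in replicate 2. Of 10 natural killer genes only Nkg7 reached 1 TPM in both libraries (10.2 and 9.36 TPM), and Klre1 had 0 counts. Mast cell and basophil genes had sums of 67.7 and 29.5 TPM with 5 of 10 at 1 TPM, the highest means being those of Prg2 (38.7 and 17.7 TPM) and Mcpt8 (10.9 and 2.56 TPM), with Tpsb2 at 0 counts. Platelet genes had sums of 19.3 and 26.9 TPM with 4 of 10 at 1 TPM, the highest means being those of Itga2b (6.45 and 9.06 TPM) and Pf4 (5.67 and 5.87 TPM), with Gp6 at 0 counts.

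Of the summed TPM of the 9 genes, Lyn held 19.9 ± 5.33%, Fyn 12.3 ± 2.07% and Lck 9.14 ± 0.813% (SD, n = 2). The 9 genes held 37.2 ± 0.272% of the summed TPM of all 32 cytoplasmic tyrosine kinase genes, at 37.0% in replicate 1 and 37.4% in replicate 2. By mean TPM of the 32, Syk came at rank 2, after Jak1 (23.6 and 23.7 TPM), the kinase of many cytokine receptors. Btk came at rank 3 and Lyn at rank 5, with Jak2, the kinase of the thrombopoietin receptor, between them (11.4 and 13.6 TPM). In protein-coding transcripts alone, mean Btk was 9.33 TPM, below Jak2 at 12.5, Lyn at 10.5 and Csk at 10.1 TPM.

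**Figure D5:**
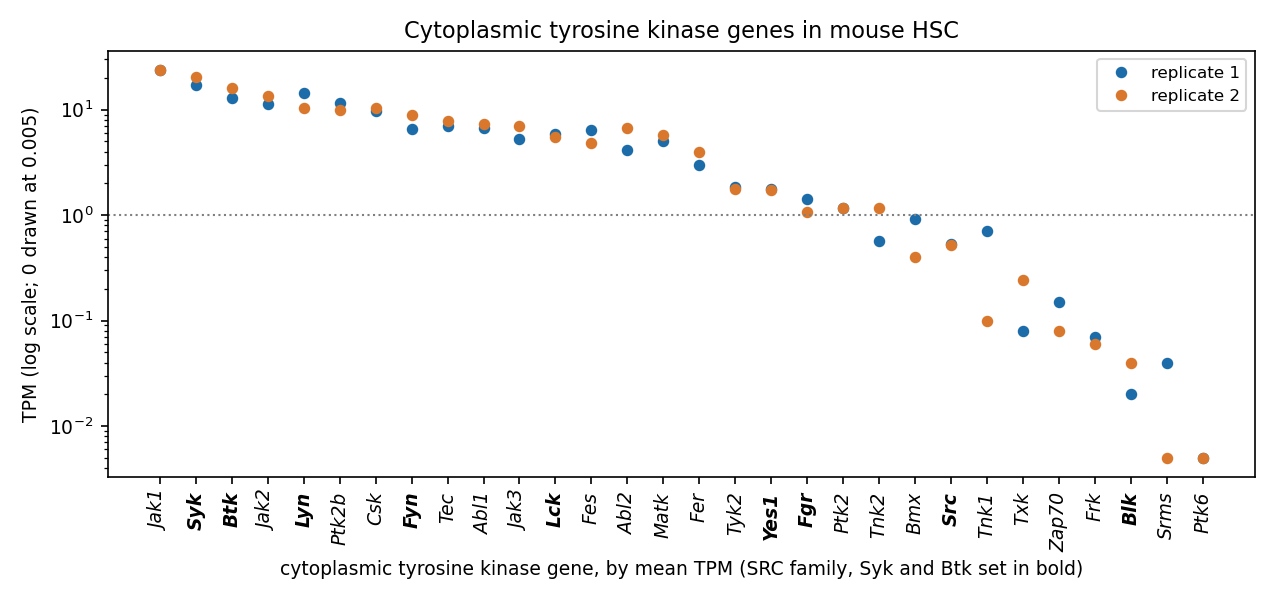
TPM on a log axis of 30 of the 32 cytoplasmic tyrosine kinase genes in replicate 1 (blue) and replicate 2 (orange), ordered by mean TPM, with the SRC family, Syk and Btk genes in bold. Syk, Btk and Lyn are among the leading 5, and Src and Blk are below the dotted line at 1 TPM.

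Of 9 further kinases of these families, 2 reached 1 TPM in both libraries. In the SYK family, Syk had 17.1 and 20.4 TPM, against 0.15 and 0.08 TPM for Zap70, its T cell counterpart. In the TEC family, Btk (12.9 and 16.2 TPM) stood above Tec (7 and 7.85 TPM), Bmx (0.92 and 0.40 TPM) and Txk (0.08 and 0.24 TPM). Frk (0.07 and 0.06 TPM) and Srms (0.04 and 0 TPM), relatives best known from epithelia, were low, and Ptk6 had 0 counts.

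Genes that restrain these kinases were widely expressed, with 22 of 23 at 1 TPM in both libraries and a median of 6.85 TPM in replicate 1 and 6.58 TPM in replicate 2, against medians of 5.87 and 5.55 TPM for the 9 kinases and 0.51 and 0.53 TPM for all protein-coding genes. Csk, the kinase that closes the SRC family, had 9.66 and 10.5 TPM, and its relative Matk had 5.00 and 5.71 TPM. Pag1, the membrane anchor of CSK, had 7.93 and 5.51 TPM. The phosphatase gene Ptpn6, which encodes SHP-1, had 76.8 and 105.9 TPM, the highest mean of the list, and Inpp5d, which encodes SHIP1, had 21.4 and 23.2 TPM. Ptpn18, the highest of the list in replicate 1, was apart between the replicates, at 100.7 and 38.1 TPM, as was Dok3, at 2.21 and 0.77 TPM. The receptor phosphatases that open the SRC family were all present, Ptprc at 67.6 and 66.4 TPM, Ptpra at 16.0 and 18.0 TPM and Ptpre at 15.0 and 19.4 TPM.

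Of 13 genes for signalling chains and receptors of the ITAM type, a list that also held Hcst, whose DAP10 chain has no ITAM, 7 reached 1 TPM in both libraries. Tyrobp, which encodes DAP12, was the highest at 21.8 and 10.6 TPM and was apart between the replicates. Fcer1g, the common chain of Fc receptors, had 12.4 and 9.11 TPM, and its partner Fcgr3 had 8.00 and 6.19 TPM. Clec7a was also apart, at 3.49 and 1.70 TPM. These myeloid chains were higher in replicate 1, in the same direction as the neutrophil and monocyte sums given above, whose part in these levels was not tested. Of 17 inhibitory receptor genes found in the tables, 12 reached 1 TPM. Cd72, a receptor that restrains B cell signalling, had the highest mean at 14.8 and 31.3 TPM, ahead of Clec12a (16.5 and 17.0 TPM), which was higher than Cd72 in replicate 1. By CPM, Clec12a was higher in both libraries (100.4 and 63.9 CPM, against 37.6 and 57.3 CPM for Cd72). Cd72 was apart in the other direction from Pirb (2.34 and 1.16 TPM) and Clec4a2 (4.34 and 2.16 TPM). Cd300a was also apart, at 1.73 and 3.90 TPM, but without division by length its order turned, at 23.9 and 19.7 CPM.

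Of 26 adaptor genes, 16 reached 1 TPM in both libraries. The highest was Dapp1, a phosphoinositide-binding adaptor, at 75.7 and 87.2 TPM, followed by Skap2, which links SRC family kinases to integrins, at 35.02 and 41.96 TPM, and Stap1 at 19.4 and 24.1 TPM. Grb2 (6.05 and 19.0 TPM) and Nck1 (6.82 and 16.0 TPM) were apart between the replicates. In CPM the difference was smaller for Grb2, at 41.3 and 49.1 CPM. Of 39 substrates and effectors, 32 reached 1 TPM. Vav1, an exchange factor for Rac, had 38.4 and 60.6 TPM, Hcls1, an actin regulator phosphorylated by SYK and LYN, had 36 and 59.2 TPM, and Pik3r1 had 30.3 and 34.1 TPM. Plcg2, the phospholipase activated by BTK, had 22.2 and 24.8 TPM, above Btk in both libraries. The focal adhesion gene Pxn (9.18 and 23.9 TPM) and the cortactin gene Cttn (5.45 and 13.4 TPM) were apart. Without division by length the order of Pxn turned, at 75.9 and 66.0 CPM, and Cttn was at 23.0 and 32.4 CPM.

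The protein-coding genes closest to Syk in level were Aimp1 (17.2 and 20.3 TPM), Mrps5 (17.1 and 20.6 TPM) and Appl2 (17.0 and 20.2 TPM), by the summed difference in log2 (TPM + 1) over the 2 libraries. Genes that overlap the 9 kinases had few counts. Those opposite to Lyn were Gm26857 with 9 and 39 counts, 9430025C20Rik with 9 and 23 and Gm11805 with 14.5 and 0, beside Gm16364 with 7 and 26 counts on the strand opposite to Fyn. Whether the counting used strand is not stated, so reads of such partners may not be told apart. The deposited posterior spread of the count was 0 for 8 of the 9 kinases, so their counts were not shared with other genes, and for Lyn it was under 1 count.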

How the data were processed

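Per the file headers, the deposited tables give every gene and transcript an expected count, estimated by the authors and not always whole, together with TPM and FPKM. They also hold posterior means of these, deposited interval bounds on the TPM and FPKM scales (each entered as a score) and, as another deposited score, the posterior spread of the count. Transcript tables add a deposited isoform share, in percent of the gene's TPM. The bounds matched intervals at the 95% level by their width. Build and annotation were mm10 and GENCODE M4, as the sample text files say. For the aligner and the counter, no name is given in the sources used here. Symbols, classes, positions and coding segments came from GENCODE M21, matched by identifier for 42462 of 43346 genes, and promoters from RefSeq on GRCm38.p6.

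The kinases and gene lists were chosen with earlier results of these data known. Detection, order of pairs and difference between replicates followed the thresholds given in the text, and no group comparison was possible with 1 group. Genes named from the lists were all kinases and restraining genes, the leading genes of each other list, those at 0 counts and those apart between replicates, except some items that are not reported here. Expected counts were scaled with edgeR 4.0.16 (TMM) and, after rounding, with DESeq2 1.42.0 (size factors), with no differential test. The scaled counts served as alternatives for the ratios and for the calls of genes apart between replicates. Rules were tested on simulated data. Ratios used a pseudocount of 0.1 TPM. Python 3.11.15, pandas 2.3.3 and Biopython 1.88 were used.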

Additional observations from a re-analysis of the deposited data

How the results depend on the processing

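No paired analysis was possible because there is 1 group. Detection of 7 of the 9 kinases ranged from 5 at 2 TPM to 8 at 0.5 TPM, at 10 counts, by FPKM and with TPM rescaled over protein-coding genes, and it was 7 with either library alone. Ordered pairs ranged from 29 with a ratio of at least 1.5 to 35 by CPM, where Lck over Yes1 lost its order and Btk over Lyn was ordered the other way, and with a library left out they numbered 32 to 35. The count apart between replicates stayed 0 under every alternative run, including no minimum TPM, the one in which all 9 genes could be called. The 1.5-fold alternative was run on TPM only. The same leading transcript was found for 5 of 7 genes, and for 6 by posterior mean shares or among coding transcripts. It was found for 4 of 7 at a share of at least 50%, against 4348 of 7414 protein-coding genes. At a mean TPM of 5, where fewer genes qualify, it was 3 of 5, against 3442 of 4406. The kinases' share of cytoplasmic tyrosine kinase TPM, 37.2%, was 32.1% in CPM without division by length and 34.9% in protein-coding transcripts, an alternative chosen after seeing the data, and 37.0% to 37.4% with a library left out. Among lists, relatives numbered 2 of 9 at 1 TPM, 1 at 2 TPM and 4 with rescaled TPM, T cell genes 3 of 10 and 0 at 2 TPM, natural killer genes 1 of 10, 4 at 0.5 TPM and 6 with rescaled TPM, monocyte genes 5 of 10 and 8 with rescaled TPM, and mast cell genes 5 of 10 and 3 at 2 TPM. The log2 ratio of Btk was -0.33 by TPM and 0.19 in protein-coding transcripts, and that of Lyn was 0.45 and 0.02. Depth limits Blk, with 4 and 13 counts.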
